A study of Gallus gallus with 16 samples.

Results

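In sorted chick neural crest, 484 of 17717 autosomal features were higher in every library that carried CRISPR guide plasmids than in both libraries that carried Cas9 without a guide. The opposite order, lower in every such library than in both controls, held for 1793. Both counts depend on the scaling of the libraries. The 37 genes described here are those among the 484 that met a limit on the size of that difference and a condition on another group of genes. The table holds 24881 features in all. They were chosen by their measured levels in CPM (counts per 1000000 counts of the library). For each gene, the score was the log2 ratio of the lowest CPM among the 14 guide-carrying libraries to the highest CPM of the 2 Cas9 control libraries, with 0.5 added to each. A score of at least 1 was required, and 39 autosomal genes reached it, so the cap of 150 genes was not met. Of these, 2 were dropped because their level followed that of 3 genes on chromosome 14 (12156905 to 12164434, galGal5) with a Pearson r of 0.85 or more over the 16 libraries. The difference between guide-carrying and control libraries therefore chose the members and is described here without a test. Tests are given only for comparisons among the guide-carrying groups, which the score did not set against each other. They reuse the libraries that set the score, so they are not independent of the choice of members.

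Neural crest cells arise at the border of the neural plate, leave the dorsal neural tube and form, among other tissues, peripheral neurons, glia, pigment cells and parts of the heart. SOX10 and TFAP2B are transcription factors of neural crest and its derivatives, MSX1 acts at the neural plate border, and SOX3 is a factor of neural progenitors. Cas9 cuts DNA at the site matched by a guide RNA, and the repair of such a cut often disrupts the gene.

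The tissue was Citrine-positive vagal neural crest of wild-type chick embryos at Hamburger-Hamilton stage 18, electroporated with pCAG Cas9-2A-Citrine in every group. The CAG promoter is active in most cell types, so Citrine marks electroporated cells, not neural crest alone. The sox3 group (2 libraries) also received pcU6:sox3_g1 and pcU6:sox3_g2, the msx1 group (3 libraries) pcU6:msx1, and the sox10 group (3 libraries) pcU6:sox10_g1 and pcU6:sox10_g2. The tfap2b group (3 libraries) received pcU6:tfap2b_g1 and pcU6:tfap2b_g2, and the double group (3 libraries) both of these with pU6:sox10_g1. The control (2 libraries), called cas9 below, received pCAG Cas9-2A-Citrine alone. None of the groups used here carried a guide aimed at another site, so the presence of a guide plasmid and the loss of a target are not separated by this design. Whether replicates are different embryos is not stated in the labels, and the p-values below therefore cover only the spread among these libraries, which may be technical.

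The libraries held 5721022 to 24929531 counts each. The genes carry Ensembl IDs that neither the table nor the reference used here pairs with symbols (0 matched), so the function of the members, the targeted genes and cell type markers are not analysed here. Members are therefore described by level, position and structure. In bulk RNA, a change in the share of cells that express a gene cannot be told apart from a change in RNA per cell. Scaling matters for these libraries, since TMM (a scaling that centres most genes) would raise log2 ratios to cas9 by 0.52 in the sox10 group, 0.36 in the tfap2b group and 0.26 in the double group, and change them by 0.01 in the sox3 group and -0.10 in the msx1 group. Levels below are in CPM of the library total, as in the rule.

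The scores of the 37 members ran from 1.01 to 2.46, with a median of 1.32. The 2 members with the highest scores were well separated from the control. ENSGALG00000024272 (chromosome 25, 1885186 to 1886619, plus strand, 3 exons, 577 exonic bases) had 78.5 and 90.4 CPM in the sox3 libraries and 159, 181 and 103 CPM in those of msx1. It had 137, 348 and 485 CPM in the sox10 libraries, 222, 674 and 161 CPM in the tfap2b libraries and 291, 205 and 360 CPM in the double libraries, against 2.84 and 13.8 CPM in the cas9 libraries. The cas9 libraries differed from each other, and the higher of them still lay below the lowest guide-carrying library, sox3 replicate 1.

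ENSGALG00000043064 (chromosome 17, 992193 to 995196, minus strand, 7 exons) was more even. It had 85.0 and 93.1 CPM in the sox3 libraries, 145, 101 and 52.2 CPM in the libraries of msx1 and 89.9, 149 and 151.4 CPM in the sox10 libraries. It had 96.0, 300.5 and 114 CPM in the tfap2b libraries and 129.9, 166 and 174 CPM in the double libraries, against 10.1 and 9.44 CPM in the cas9 libraries. The lowest guide-carrying value was that of msx1 replicate 3 and the highest that of tfap2b replicate 2.

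**Figure D1:**
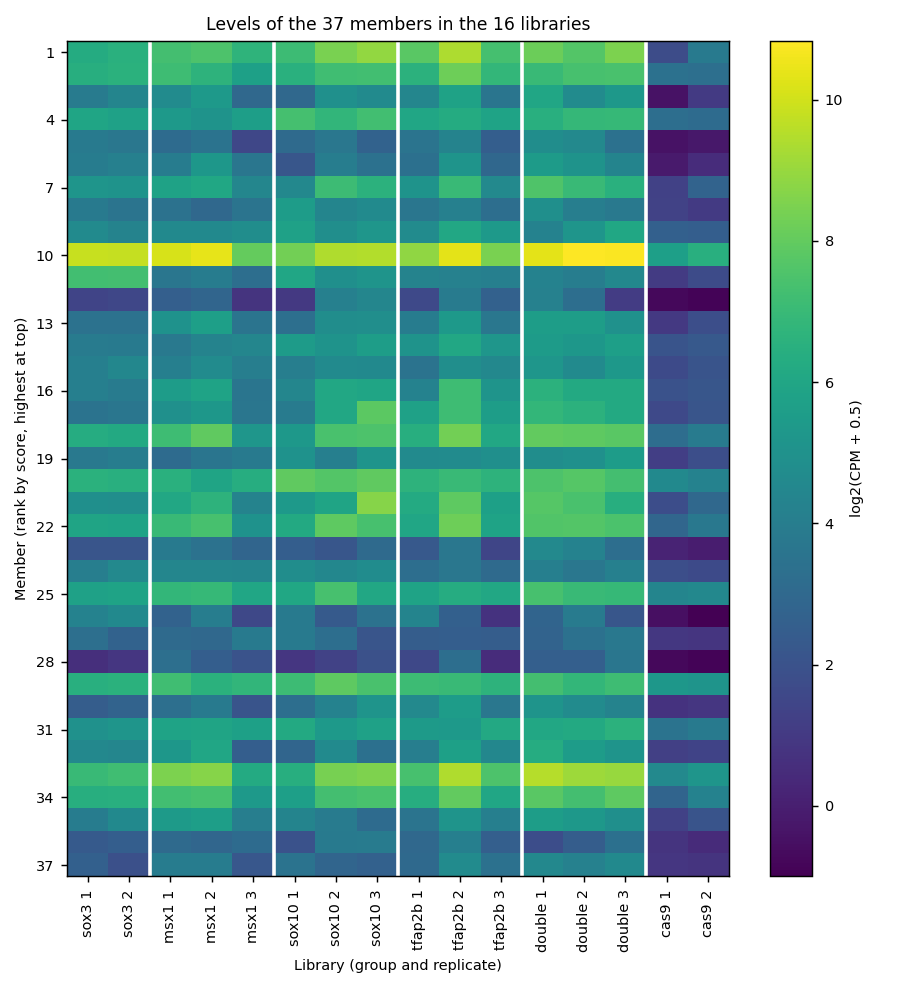
Heat map of log2(CPM + 0.5) for the 37 members (rows, ranked by score from 1 at the top to 37) in the 16 libraries (columns, with white lines between groups and the cas9 libraries at the right). Both cas9 columns are darker than the guide-carrying columns in every row, as the rule requires, and msx1 replicate 3 is the lowest guide-carrying library in 15 rows.

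The most abundant member was ENSGALG00000012550 (chromosome 1, 52153748 to 52159902, minus strand, 5 exons). It had 919 and 900.0 CPM in the sox3 libraries, 1126, 1343 and 261 CPM in the libraries of msx1 and 322, 691 and 714 CPM in the sox10 libraries. It had 471, 1312 and 348 CPM in the tfap2b libraries and 1320.0, 1826 and 1746 CPM in the double libraries, against 50.1 and 87.3 CPM in the cas9 libraries. This gene alone gave 28.4% of the members' summed mean CPM in guide-carrying libraries and 22.7% in cas9 libraries. It overlaps another annotated gene on the same strand, so its counts are uncertain.

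ENSGALG00000038636 (chromosome 23, 270344 to 284774, minus strand, 8 exons) was the second most abundant. Its levels were 131 and 145 CPM in the sox3 libraries, 364, 417 and 75.9 CPM in the libraries of msx1 and 86.5, 342 and 371 CPM in the sox10 libraries. They were 167, 681 and 187 CPM in the tfap2b libraries and 725, 557 and 518 CPM in the double libraries, against 23.0 and 35.1 CPM in the cas9 libraries. As for the gene before it, the double libraries were uniformly high, while 1 library stood low in the msx1 and sox10 groups and 1 stood high in the tfap2b group.

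Mean levels over the guide-carrying libraries ranged from 4.47 to 950.01 CPM (median 34.4), and mean cas9 levels from 0.0742 to 68.7 CPM (median 3.19). Of the members, 10 averaged above 100 CPM in guide-carrying libraries, 22 lay between 10 and 100 CPM, and 5 lay under 10 CPM. Per kilobase of exon, the scale on which genes can be compared, mean guide-carrying levels ran from 4.47 to 596 CPM per kb with a median of 24.9, against 7.63 over the 13361 autosomal genes tested. In cas9 libraries the corresponding medians were 2.28 for the members and 10.2 for the autosomal genes tested. The members' median was thus below that of genes at large in the control and above it with guides, which the rule in part requires. Single members went against it, such as ENSGALG00000012550 at 43.1 CPM per kb in cas9 libraries and ENSGALG00000013900 at 4.47 CPM per kb in guide-carrying libraries. In cas9 libraries 4 members had 10 or fewer counts in each library, so their control levels rest on few reads. All 37 members had counts in every guide-carrying library, the lowest being 6, and all 37 passed the filter on low counts.

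Distances from the control were used by the rule, so they are described for each guide group without a test. On the scale log2(mean CPM + 0.5), the members' median difference from cas9 was 2.36 in the sox3 group, 3.20 in the msx1 group, 3.26 in the sox10 group, 3.35 in the tfap2b group and 3.93 in the double group. Over all 14081 genes tested, these medians were -0.08, 0.04, -0.67, -0.43 and -0.29 in the same order. All 5 share the cas9 libraries, so they are given side by side and not as independent values. The double group had the highest mean of the 5 guide groups for 20 members and the lowest for 0. For the sox3 group these counts were 2 and 24. No such counts over all genes are given. In the tests below, 0 members were called higher in the double than in the sox10 group, where 866 of 14081 genes were. Against the tfap2b group, 0 members and 1 of all genes tested were called higher in the double group. The members' summed level was 2250 and 2287 CPM in the sox3 libraries, 1241 to 3711 CPM in the msx1 libraries, 1975 to 4164 CPM in the sox10 libraries and 1840 to 5558 CPM in the tfap2b libraries. It was 4912 to 5043 CPM in the double libraries and 254 and 351 CPM in the cas9 libraries.

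At the edge of the rule, the lowest score inside was that of ENSGALG00000034975 (chromosome 17, 946578 to 947621, 1 exon) at 1.01, with a lowest guide-carrying level of 3.21 CPM and a highest cas9 level of 1.34 CPM. The highest score outside was that of ENSGALG00000015708 at 0.997, with 66.4 CPM and 33.0 CPM on the same measures. The members' r with the chromosome 14 genes ranged from 0.0579 to 0.769 with a median of 0.408, and ENSGALG00000031149 was nearest to the limit. The genes dropped for r were 2 of the 3 chromosome 14 genes themselves, ENSGALG00000023740 and ENSGALG00000043234, both at an r above 0.999. With the score turned round (lowest cas9 level over highest guide-carrying level), 155 autosomal genes reached the same limit, against the 39 that reached it upward. Both counts depend on the scaling. On CPM the median log2 ratio to cas9 over all genes tested was -0.67 in the sox10, -0.43 in the tfap2b and -0.29 in the double group. With TMM library sizes the rule kept 46 genes upward, and no downward count is given for that scaling.

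The members lay on 17 chromosomes, with 6 each on chromosomes 1 and 2. Macrochromosomes (1 to 5) held 20 members, intermediate chromosomes (6 to 10) 3 and microchromosomes (11 upward) 14. These were 54.1%, 8.11% and 37.8% of members, against 47.2%, 17.1% and 35.7% of the autosomal genes tested. Members had a median of 5 exons (quartiles 3 and 8), against 8 (4 and 14) for autosomal genes tested, with overlapping exons merged. Genes of at most 5 exons made up 59.5% of members and 33.3% of autosomal genes tested. Their median genomic span was 6155 bp against 11994 bp, and their median exonic length 1506 against 1917 bases. Single-exon genes were 1 member and 4.03% of the autosomal genes tested. The members were thus short genes with few exons more often than autosomal genes at large, a description that was not tested.

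Annotated neighbours among the members were few. ENSGALG00000022622 and ENSGALG00000025929 overlap on the minus strand of chromosome 2 (32666501 to 32690449). On the same strand, ENSGALG00000027925 overlaps both and ENSGALG00000028908 overlaps ENSGALG00000022622 alone, and neither was a member. ENSGALG00000022622 had 61.7 and 54.6 CPM in the sox3 libraries, 40.6, 33.2 and 49.6 CPM in the libraries of msx1 and 159.9, 110.2 and 152 CPM in the sox10 libraries. It had 62.9, 77.9 and 58.5 CPM in the tfap2b libraries and 89.2, 118 and 119.9 CPM in the double libraries, against 9.09 and 8.22 CPM in the cas9 libraries. Reads that fall in more than 1 gene may be lost or shared by the counting, so this pair of members is uncertain. It is 1 locus, but enters all counts of members as 2 genes. In the same window, ENSGALG00000027925 averaged 132 CPM in guide-carrying libraries and 199 CPM in cas9 libraries, while ENSGALG00000028908 averaged 6.52 CPM in guide-carrying libraries and 0.607 CPM in cas9 libraries. A second run, on chromosome 17 (946578 to 995196), held ENSGALG00000034975 and ENSGALG00000043064 with 3 genes between them. Among those 3, the 1 that passed the filter, ENSGALG00000042635, averaged 8.10 CPM in guide-carrying libraries and 33.1 CPM in cas9 libraries. Overlap with another annotated gene applied to 6 members, 16.2% of them, against 18.4% of autosomal genes tested.

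The guide groups were then compared with each other. Differential expression was tested with edgeR's quasi-likelihood test over all 14081 genes, and an adjusted p under 0.05 (Benjamini-Hochberg) is called. A difference of any kind among the 5 guide groups was called for 15 of 37 members (40.5%), while 47.4% of all genes tested were called, a share below that of genes at large. Without tfap2b replicate 2 it was above it, at 24 of 37 (64.9%) with 6820 of 14008 genes tested called. With the closest pairs of replicates summed, 7 members and 3770 of 14608 genes were called. The rule bounds every member from below in each guide-carrying library, which limits how far a member can fall in any of these groups. It also requires low cas9 levels. On CPM, the median log2 ratio to cas9 over all genes was smallest in size for sox3 and msx1 (-0.08 and 0.04). That order depends on the scaling. TMM, used in the comparisons below, would change these medians by 0.01 and -0.10, and raise those of the remaining guide groups by 0.26 to 0.52. Such a median also does not measure how alike the profiles of the groups are. How far the choice of members sets the direction of the comparisons below was not tested.

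In the sox10 group against the sox3 group, 13 members were higher (35.1%; 15.9% of all genes tested) and 1 was lower (21.6% of all genes tested). In either direction, 37.8% of members and 37.5% of all genes tested were called. The members' median log2 fold change was 1.37, against -0.28 over all genes. The 13 higher members had log2 fold changes of 1.27 to 3.74. Without TMM the members' median was 0.86 and that of all genes -0.78, with 8 members higher and 1 lower. Without either sox3 library the count of called members was 6, against 14 with all libraries, while 3522 of 14738 genes tested were called without replicate 1 and 3359 of 14680 without replicate 2. Over all genes, 2239 were higher and 3038 lower with TMM, and 1405 higher and 4434 lower without.

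ENSGALG00000012456 (chromosome 1, 51448385 to 51457486, plus strand, 7 exons) gave the largest rise there. It had 14.5, 67.9 and 229.8 CPM in the sox10 libraries against 10.9 and 11.9 CPM in the sox3 libraries, and the groups did not overlap. The log2 fold change was 3.74 (SE 0.92, edgeR adjusted p = 0.00445, n = 3 against 2). Without sox10 replicate 3 it was 2.30 (edgeR adjusted p = 0.0183), and with the closest pairs of replicates summed the call was lost (adjusted p = 0.0744, range over alternatives 4.05e-06 to 0.0744). Its other levels were 30.6, 37.5 and 12.1 CPM in the msx1 libraries, 54.5, 142 and 48.2 CPM in the tfap2b libraries, 114, 96.0 and 73.5 CPM in the double libraries and 2.58 and 3.79 CPM in the cas9 libraries. The sox10 libraries spread more widely than any other group of this gene.

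ENSGALG00000021143 (chromosome 8, 3658171 to 3666375, minus strand, 5 exons) had 40.6, 59.2 and 415 CPM in the sox10 libraries against 29.3 and 28.03 CPM in the sox3 libraries. Its log2 fold change was 3.14 (SE 1.02, edgeR adjusted p = 0.0234). Without sox10 replicate 3 the log2 fold change was 1.27 (edgeR adjusted p = 0.202), and the call was also lost without sox3 replicate 1 or 2 (adjusted p = 0.128 and 0.145). It was lost in 5 of 23 alternatives in all, with adjusted p of 0.00706 to 0.202. In the other guide groups it was at 67.6, 99.0 and 19.3 CPM (msx1), 74.2, 235 and 53.3 CPM (tfap2b) and 213, 171 and 84.4 CPM (double), against 3.00 and 7.59 CPM in the cas9 libraries.

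ENSGALG00000031149 (chromosome 26, 2653656 to 2657098, plus strand, 9 exons) was the member that fell in the sox10 group against the sox3 group. It had 64.0, 29.3 and 34.6 CPM in the sox10 libraries against 150.8 and 158 CPM in the sox3 libraries (log2 fold change -1.34, SE 0.36, edgeR adjusted p = 0.0077). It had 12.1, 15.3 and 9.27 CPM in the msx1 libraries, 18.9, 18.002 and 16.5 CPM in the tfap2b libraries and 18.4, 15.6 and 22.8 CPM in the double libraries, against 1.55 and 2.80 CPM in the cas9 libraries. The order of group means was sox3, sox10, double, tfap2b, msx1 and cas9. The double and tfap2b libraries overlapped. This gene was called in 5 of the 6 comparisons, more than any other member.

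For ENSGALG00000031149 the sox3 group exceeded the msx1 group without overlap (log2 fold change 3.77, SE 0.38, edgeR adjusted p = 0.00023, n = 2 against 3). Of all genes tested, 18% lay above without overlap in that comparison and 25.5% below. The call was kept in 22 of 23 alternatives and lost with the closest pairs of replicates summed. This gene was the sole member called there, where 0.419% of all genes tested were higher, 0.0142% lower and 0.433% called in either direction. The sox10 group exceeded the tfap2b group (log2 fold change 1.42, SE 0.33, edgeR adjusted p = 0.0382), and the double group lay below the sox10 group (-1.43, SE 0.33, edgeR adjusted p = 0.0149). The tfap2b group exceeded the msx1 group (1.01, SE 0.33, edgeR adjusted p = 0.0259), a call that was not followed over the alternatives. The call against tfap2b was lost in 13 of 23 alternatives (adjusted p 0.000667 to 0.177) and had an adjusted p of 0.0720 with the replicate number as a block. In the double group, the call against sox10 was lost without double replicate 1 or 2 (adjusted p = 0.0531 and 0.0646, range 0.00018 to 0.067). Against the sox3 group, the sox10 call was lost without sox3 replicate 2 (adjusted p = 0.0537, range 0.000831 to 0.0714). The summed level of the 3 chromosome 14 genes was also highest in these groups, at 8510 to 13475 CPM in the sox3 libraries and 8102 to 14178 CPM in the sox10 libraries. It was 6.99 to 712 CPM in the msx1, 2089 to 4592 CPM in the tfap2b, 45.8 to 2938 CPM in the double and 1.76 to 2.30 CPM in the cas9 libraries. Its part in the levels of ENSGALG00000031149 was not tested.

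**Figure D2:**
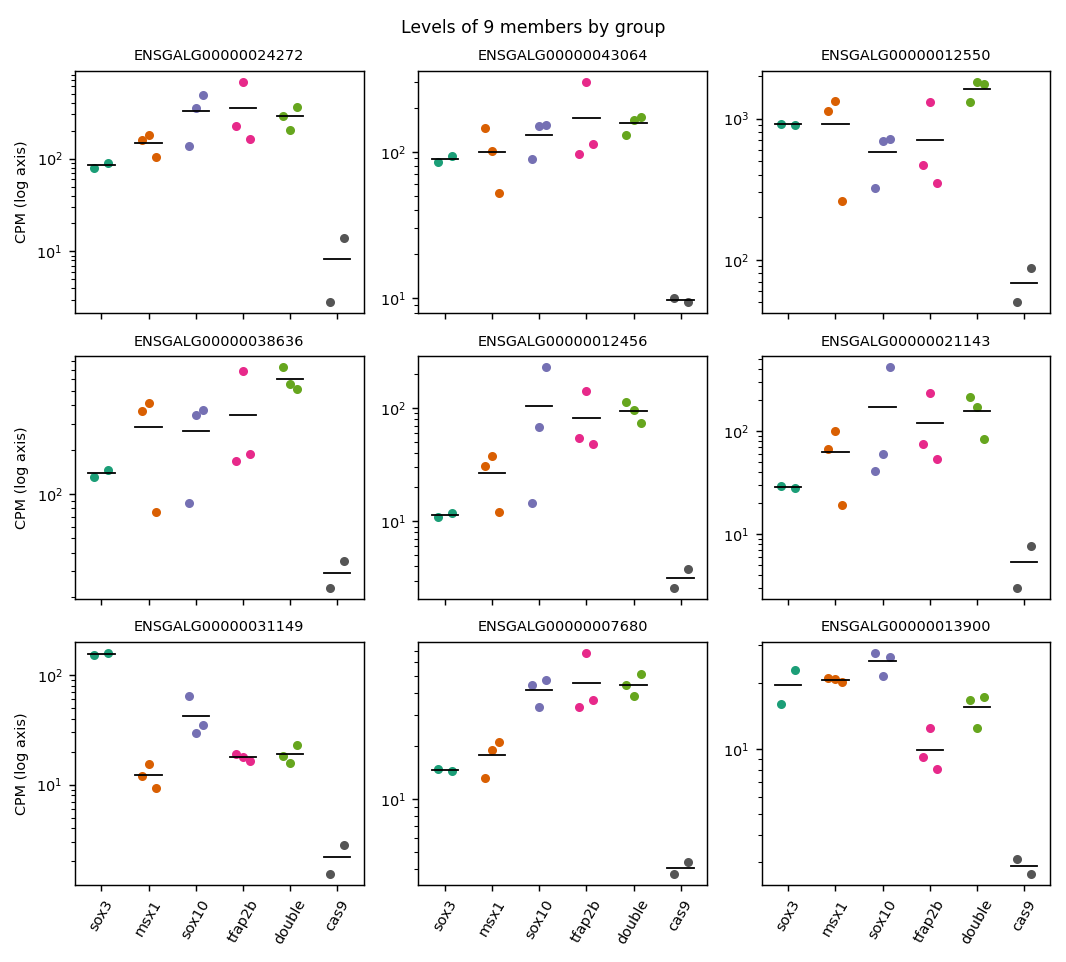
Levels in CPM (log axis, a separate range in each panel) of 9 members in the sox3, msx1, sox10, tfap2b, double and cas9 groups, with 1 point per library and a black bar at the group mean. The cas9 points lie lowest in each panel, and ENSGALG00000031149 stands at 150.8 and 158 CPM in the sox3 libraries, above every other library.

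In the tfap2b group against the msx1 group, the 10 called members were all higher (27.0%; 17.7% of all genes tested were higher and 19.5% lower). In either direction, 37.3% of all genes tested were called, a share above that of the members. The members' median log2 fold change was 0.84, against -0.20 over all genes. Among those called, the log2 fold changes ran from 0.98 to 2.13. Without TMM, 4 members were higher and 1 lower, with a members' median of 0.34 and a median of -0.65 over all genes. Over all genes, 1656 were then higher and 3964 lower. Without tfap2b replicate 2 the count of called members was 4 (10.8%), all higher, with 2212 of 14008 genes tested higher, and the members' median was 0.11, with 20 of 37 above 0. Without msx1 replicate 3 the count was also 4, all higher, with 2226 of 14001 genes tested higher and a members' median of 0.47. Without either library the members' share called higher was thus also below that of all genes.

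ENSGALG00000012456 was again the largest rise, with the tfap2b libraries at 54.5 to 142 CPM and the msx1 libraries at 12.1 to 37.5 CPM (log2 fold change 2.13, SE 0.72, edgeR adjusted p = 0.0283). That call was lost in 6 of 23 alternatives, among them those without tfap2b replicate 2 (1.33 on the log2 scale, adjusted p = 0.185), without msx1 replicate 1 or 3 (adjusted p = 0.0603 and 0.114) and without TMM (adjusted p = 0.0787). Over all alternatives its adjusted p was 0.00482 to 0.185. ENSGALG00000007680 (chromosome 2, 16734597 to 16743605, plus strand, 5 exons) had 33.6, 67.8 and 36.9 CPM in the tfap2b libraries against 13.1, 19.2 and 21.0 CPM in the msx1 libraries. Its log2 fold change was 1.87 (SE 0.35, edgeR adjusted p = 0.000456), and it kept its call in 23 of 23 alternatives. The gene fell into 2 levels with guides, since the sox10 libraries had 44.7, 33.6 and 47.8 CPM and the double libraries 44.5, 38.4 and 51.5 CPM, while the sox3 libraries had 14.9 and 14.4 CPM. The cas9 libraries lay below both, at 3.77 and 4.38 CPM.

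**Figure D3:**
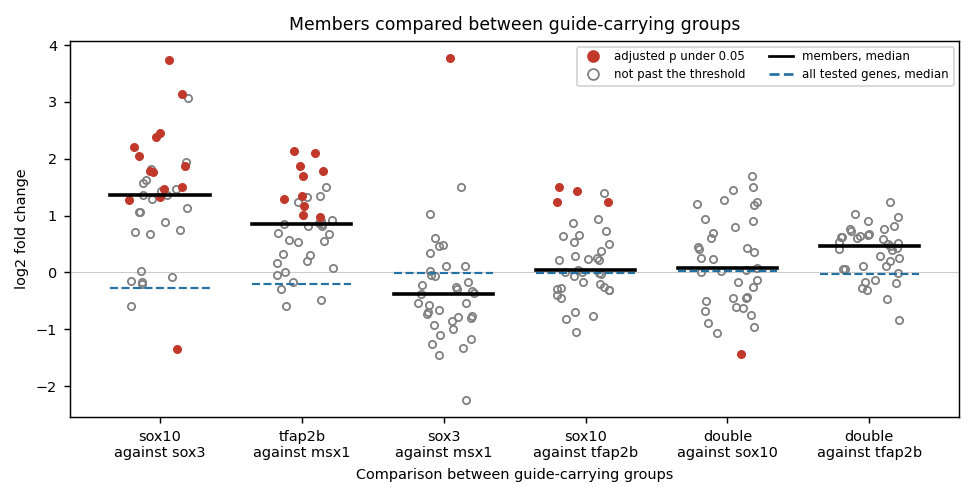
Log2 fold changes of the 37 members in 6 comparisons between guide-carrying groups (first-named group over second), with filled red points for an adjusted p under 0.05, open points for the others, black bars at the members' median and blue dashed lines at the median of all 14081 genes. The members' median lies at 1.37 for sox10 against sox3 and at 0.04 for sox10 against tfap2b.

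Between the groups aimed at sox10 or tfap2b, few members were called, though for sox10 against tfap2b their share was above that of all genes. In the sox10 group against the tfap2b group, 4 members were called, all higher (10.8%; 0.653% of all genes tested were higher, 1.92% lower and 2.57% either). They were ENSGALG00000022622, ENSGALG00000034907, ENSGALG00000013900 and ENSGALG00000031149. All but the last overlap another annotated gene and are uncertain, and the call of the last was lost in 13 of 23 alternatives. The members' median log2 fold change was 0.04, and its sign turned with single libraries, at -0.23 without tfap2b replicate 1, -0.14 without sox10 replicate 3 and 0.87 without tfap2b replicate 2. Among them was ENSGALG00000013900 (chromosome 3, 55230298 to 55350427, plus strand, 18 exons), with 27.5, 21.6 and 26.5 CPM in the sox10 libraries against 9.20, 12.5 and 8.07 CPM in the tfap2b libraries (log2 fold change 1.50, SE 0.35, edgeR adjusted p = 0.0374). It overlaps another gene on its strand and is uncertain. Its call was lost in 13 of 23 alternatives, with an adjusted p of 4.17e-05 to 0.189. It had 16.03 and 23.1 CPM in the sox3 libraries, 21.2, 20.9 and 20.3 CPM in the libraries of msx1 and 16.7, 12.4 and 17.3 CPM in the double libraries, against 3.10 and 2.66 CPM in the cas9 libraries. The count of called members in this comparison was 2 with the replicate block, 0 without tfap2b replicate 1 and 1 without tfap2b replicate 3. It was 2 without either sox3 library, msx1 replicate 1 or 2, double replicate 1 or either cas9 library. At these settings 112 to 251 of all genes were called, against 362 with all libraries.

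In the double group against the sox10 group, ENSGALG00000031149 was the sole member called, and was lower (2.70%; 6.15% of all genes tested were higher, 6.95% lower and 13.1% either). The members' median log2 fold change was 0.07, against 0.03 over all genes, and was 0.48 without sox10 replicate 3 and -0.01 with RLE size factors. By DESeq2 5 members (13.5%) and 1871 of 14081 genes were lower. By edgeR 4 members and 1353 of 14066 genes were lower without sox10 replicate 2, and 3 members and 1326 of 14008 genes without tfap2b replicate 2. Lower calls numbered 2 members and 921 of 14069 genes without sox10 replicate 1, and 0 members without double replicate 1 or 2 (318 of 14061 and 328 of 14051 genes). In the double group against the tfap2b group, 0 members were called by edgeR or DESeq2. By edgeR, 0.0426% of all genes tested were called (0.0071% higher and 0.0355% lower). By DESeq2, 192 of 14081 genes were called (76 higher and 116 lower), also a small share. An unadjusted edgeR p under 0.05 was reached by 3 of 37 members and by 10.0% of all genes tested. The members' median log2 fold change there was 0.46, and 29 of 37 were above 0. Without tfap2b replicate 2 the members' median was 1.11, with 35 of 37 above 0. At that setting 18 members and 8.18% of all genes tested had an unadjusted edgeR p under 0.05, and 0 members were called. The same p was reached by 0 members and 13.7% of all genes without tfap2b replicate 1, and by 2 members and 10.3% without replicate 3. Most members were highest in tfap2b replicate 2 among the tfap2b libraries, so leaving it out in itself raises the double group over the tfap2b group. Without tfap2b replicate 3 the members' median was 0.19. In the sox3 group against the msx1 group the median was -0.37, with 27 members below 0 and -0.01 as the median over all genes. It was -0.13 without msx1 replicate 2 and -0.74 without msx1 replicate 3. These medians are descriptions, without a test of the list.

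Within groups, the members varied together. Across all guide-carrying libraries, the highest level of a member was 2.71 to 21.5 times its lowest (median 8.02). This range also takes in differences between groups. In msx1 replicate 3, 28 of 37 members were at their lowest among the 3 msx1 libraries, as were 31.3% of all genes tested. In tfap2b replicate 2, 32 members were at their highest among the tfap2b libraries (33.2% of all genes tested), and in sox10 replicate 1, 22 members were at their lowest of the sox10 libraries (31.1%). All 3 orders held for 20 members and for 5.02% of all genes tested. The score uses the lowest library of each gene, and msx1 replicate 3 was that library for 15 members, so the low side of this pattern is not independent of the rule.

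The members' deviations in these libraries also shared a direction. Relative to the group mean of log2(CPM + 0.5), the members' median was -0.80 in msx1 replicate 3, 0.34 and 0.57 in msx1 replicates 1 and 2, and 0.97 in tfap2b replicate 2. It was -0.38 and -0.41 in tfap2b replicates 1 and 3 and -0.49 in sox10 replicate 1. Over all genes tested, the medians of all 16 libraries lay between -0.08 and 0.11, where deviations of opposite sign cancel. The median biological coefficient of variation within groups was 0.495 for the members and 0.427 for the autosomal genes tested. The sox3 libraries (-0.04 and 0.04) and the double libraries (0.12, -0.02 and -0.10) differed little.

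**Figure D4:**
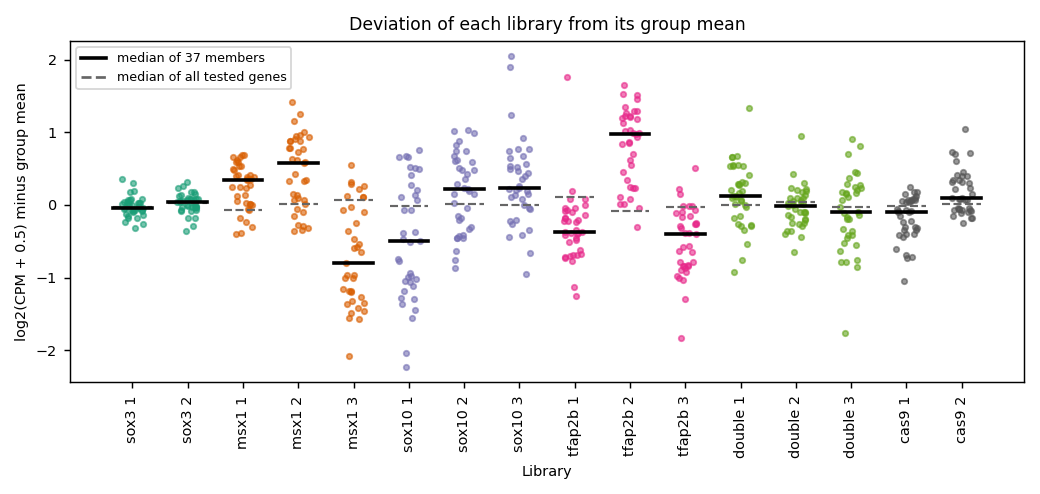
Deviation of each library from its group mean, on the scale log2(CPM + 0.5), for the 37 members (points, coloured by group), with the members' median (black bar) and the median of all genes tested (grey dashed line). The members' median is 0.97 in tfap2b replicate 2 and -0.80 in msx1 replicate 3, while the sox3 and double libraries lie near 0.

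A limit of 2-fold, chosen after these values were seen, isolates the members with this pattern. In 18 members msx1 replicate 3 was at least 2-fold below both other msx1 libraries (3.92% of all genes tested), and in 20 members tfap2b replicate 2 was at least 2-fold above both other tfap2b libraries (5.27%). Both held for 14 members (37.8%; 1.14% of all genes tested). These 14 lay on 10 chromosomes, with mean guide-carrying levels of 7.81 to 950.01 CPM, a median of 5 exons and a median exonic length of 1266 bases. They include ENSGALG00000012550, ENSGALG00000038636, ENSGALG00000012456, ENSGALG00000021143 and ENSGALG00000034975. The double group had the highest mean of the guide groups for 11 of the 14, and cas9 replicate 2 exceeded cas9 replicate 1 for 12 of them. Of the other 23 members, the double group was highest for 9 and cas9 replicate 2 exceeded replicate 1 for 11. Over all genes tested, cas9 replicate 2 was the higher for 53.8%. No share over all genes is given for a highest mean in the double group. The 14 were picked in part for a low msx1 library, which lowers their msx1 mean, so that count is not separate from the choice. Among the 15 members called as differing between guide groups, 2 were among the 14. The 14 were picked for their spread within groups, with a median biological coefficient of variation of 0.548, against 0.384 for the other members. Such spread lowers the chance of a call between groups, so this count is not a result separate from the choice.

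Pairs of members followed each other over the 14 guide-carrying libraries after group means were removed, with a median Pearson r of 0.36 over 666 pairs, against 0.02 over all pairs of genes tested. The r exceeded 0.5 in 40.8% of member pairs and 11.7% of all pairs. Without msx1 replicate 3 and tfap2b replicate 2, over 12 libraries, the members' median r was 0.07. These 2 libraries were left out because the members deviated most in them, which can itself lower r. No value over all pairs of genes is given for the 12 libraries. The points share libraries and depth, and no p is given. Other readouts of the libraries also differed. The chromosome 14 genes summed to 712 CPM in msx1 replicate 3, against 6.99 and 7.66 CPM in msx1 replicates 1 and 2, and W-linked genes to 229 CPM against 842 and 843 CPM. In tfap2b replicate 2 the chromosome 14 genes summed to 4592 CPM, against 2089 and 3516 CPM in replicates 1 and 3, and W-linked genes to 87.3 CPM against 154 and 74.1 CPM. Total counts were 24929531 in msx1 replicate 3 and 13165080 in tfap2b replicate 2. The part of these differences in the members' levels was not tested.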

How the data were processed

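The values are read counts per gene of 16 chick neural crest libraries, raw as the authors deposited them, beside each gene's exons and exonic length. The submitters' processing notes name STAR 2.4.2a, Subread 1.4.5, featureCounts and DESeq2, and the build galGal5. No source used here says whether strand was used in counting, and members that overlap another gene are called uncertain. The members and lists were chosen with earlier results of these data known.

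CPM is the count per 1000000 of the column total. The counts were tested with edgeR 4.0.16 (R 4.3.3, limma 3.58.1) on all 16 libraries, with 1 coefficient per group, TMM factors, genes kept by filterByExpr (14081) and robust estimation. Standard errors are the log2 fold change over the square root of F. Alternatives were DESeq2 1.42.0, RLE size factors, no filter, the guide-carrying libraries alone, a replicate block, no TMM, summed close pairs and leaving out each library. Named members are the 2 with the highest score, the 2 most abundant, and up to 2 called members per comparison and direction with at least 5 CPM in 1 group, no overlap between libraries and the largest fold. Genes at the limits of the rule and in runs of neighbours are also named.

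No pair of replicates agreed within sampling noise (chi-square per gene of 7.42 or more over genes with at least 20 counts). The values were unequal, at 7.42 for sox3, 9.95 for msx1 replicates 1 and 2 and 13.0 for cas9. The other pairs had 24.1 to 119. Where replicates vary beyond sampling, this value also grows with depth. Replicate 1 held 6049569 counts in sox3 and 5721022 in msx1, while the cas9 libraries held 19355001 and 22142722. The order of these pairs is therefore not one of closeness alone. The labels do not say whether the closer pairs share material.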

Additional observations from a re-analysis of the deposited data

How the results depend on the processing

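The rule kept 31 genes with a pseudocount of 1, 52 with 0.1, 46 with TMM library sizes (36 of the 37 members among them), 34 with an r limit of 0.70 and 39 with none. Leaving out 1 library gave 37 to 82 genes, the highest without cas9 replicate 2, and dropping a library can only raise the score or leave it as it was. Calls of members ranged from 10 to 24 of 37 for any difference among guide groups when 1 library was left out (24 without tfap2b replicate 2). In the same order as in the report, the ranges were 6 to 20 for sox10 against sox3, 4 to 11 for tfap2b against msx1, 1 to 1 for sox3 against msx1, 0 to 6 for sox10 against tfap2b, 0 to 4 for double against sox10 and 0 to 0 for double against tfap2b. With the closest pairs of replicates summed (sox3, msx1 and cas9, chosen after seeing the data, which leaves single samples assumed to vary like the other groups), the calls were 7 for any difference among guide groups, 4 for sox10 against sox3, 5 for tfap2b against msx1 and 0 for sox3 against msx1, sox10 against tfap2b and double against sox10. Counts over all genes also changed with the library left out, and the ranges do not compare members with genes at large. With the closest pairs summed, fewer of all genes were called as well. Where the count of members was 0, the share of all genes called was small too, so these counts do not set the members apart. For sox10 against sox3 and tfap2b against msx1, a smaller share of members than of all genes was then called in either direction. Among higher calls alone, the members' share was the larger in these comparisons. Without TMM, also chosen after seeing the data, 9 members (24.3%) and 5839 of 14081 genes were called for sox10 against sox3. For tfap2b against msx1, 5 members (13.5%) and 5620 of 14081 genes were then called. For double against sox10, 2 members and 2018 of 14081 genes were called with RLE size factors, and 5 members and 3170 of 14081 genes by DESeq2. With the replicate block, 2 members and 159 of 14081 genes were called for sox10 against tfap2b. The other counts of members stayed within 1.5 times (16 for any difference, with 6294 of 14081 genes). Same-numbered replicates mostly did not deviate together (r from -0.098 to 0.204 over 36 pairs of libraries, 3 above 0.1). The highest r were those of msx1 with tfap2b, at replicate 2 (0.204) and replicate 3 (0.158). A low r does not decide whether the numbers pair the samples, which the labels do not state. The cause of the shifts in the counts of calls was not tested. No pair of replicates met the planned limit of a chi-square per gene under 3, so that alternative gave no value. The 9 called differences of named members that were recomputed kept their sign in the 23 alternatives. Low control counts limit the fold of the least abundant members.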
